A study of Homo sapiens with 10 samples.

Results

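The CSMD genes are 3 of the 19970 protein-coding genes on chromosomes 1 to 22 and X: CSMD1 (gene ID 64478, chromosome 8, 2935361 to 4994914, 2.06 Mb), CSMD2 (114784, chromosome 1, 33513998 to 34165842, 652 kb) and CSMD3 (114788, chromosome 8, 112222928 to 113436939, 1.21 Mb), all in GRCh38 coordinates of RefSeq. A peak was taken as theirs when it overlapped the gene or the 2 kb on either side. Of 67301 peaks called against Input in 9 ChIP-seq libraries, 157 lay in the family, with 72 in CSMD1, 10 in CSMD2 and 75 in CSMD3. The members were chosen by measured values of these data, the pooled peaks of BDNF+Dox over BDNF and over Naive set against library peak totals, so pooled counts and differences between groups are given as descriptions, without a test.

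CSMD proteins are very large membrane proteins built from alternating CUB and sushi repeats, and sushi repeats are the hallmark of complement regulators. CSMD1 is expressed in neurons, can restrain complement, was studied as a candidate tumour suppressor and lies in a locus associated with schizophrenia. CSMD3 has been linked to dendrite growth and is often mutated in tumours, while CSMD2 is a synaptic protein. The mark measured here, H4R3me2s, is symmetric dimethylation at an arginine of the tail of histone H4, written mainly by the methyltransferase PRMT5 and linked above all to silenced chromatin.

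The cells were SH-SY5Y, a human neuroblastoma line, grown in all groups with 10% FCS and 300 µg/ml zeocin. BDNF+Dox cells (3 libraries) had 6 days of 10 µM retinoic acid in 3% FCS and 4 days of 50 ng/ml BDNF without serum, and for 3 days 1 µg/ml doxycycline, which turned on α-synuclein through a Tet-on system. BDNF cells (3 libraries) had the same differentiation without doxycycline, and Naive cells (3 libraries) had neither. The labels do not say whether the line was 1 clone, whether replicates were separate cultures, or which cells the single Input came from, so each SD reflects the scatter among these libraries, which could be purely technical. No doxycycline group lacking the construct was analysed here, and doxycycline and α-synuclein cannot be told apart. Peak lists hold no expression, so the identity of the line was not checked by markers.

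Libraries were of similar depth, from 17164402 to 18928589 reads kept, but of unequal peak number, from 4505 peaks in BDNF replicate 2 to 12135 in Naive replicate 1. Counts are therefore given as found and per 1000 peaks of the library. Most peaks were weak: 195 of the 67301 library peaks (0.29%) had q of 0.05 or less.

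CSMD3 was the member with the most peaks, and its scaled counts were lower in both differentiated groups than in Naive cells. It held 7, 10 and 5 peaks in BDNF+Dox libraries 1, 2 and 3, against 5, 5 and 4 in BDNF libraries and 18, 9 and 12 in Naive libraries. Scaled to the library, BDNF+Dox had 0.648, 1.45 and 0.793 peaks per 1000, BDNF had 0.819, 1.11 and 0.584, and Naive had 1.48, 1.54 and 1.53. On this scale every library of both differentiated groups lay below every Naive library, BDNF+Dox replicate 2 coming closest. The BDNF+Dox and BDNF libraries overlapped. These values rest on 4 to 18 peaks per library, and their counting error is not part of the comparison.

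The comparison of BDNF with Naive asks about differentiation alone. Its libraries also gave the expected counts and the controls of the pooled lists, so it is not independent of the choice of the genes, and no p is given for them. CSMD3 averaged 0.838 ± 0.263 peaks per 1000 in BDNF libraries and 1.52 ± 0.0306 in Naive libraries (SD, n = 3 each), a difference of −0.680. The Naive libraries held 18, 9 and 12 peaks, too few to fix a rate as closely as their SD implies. Among 603 protein-coding genes with 10 or more library peaks, 6.3% had every BDNF library below every Naive library. The minimum of 10 peaks was set after the counts were seen and equals the count of CSMD2.

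BDNF+Dox libraries averaged 0.963 ± 0.426 CSMD3 peaks per 1000, against 1.52 ± 0.0306 in Naive libraries (SD, n = 3 each), and 4.98% of the 603 genes had every BDNF+Dox library below every Naive library. Against BDNF, BDNF+Dox was higher by 0.125, which is less than the SD of either group, and the sign turned without BDNF+Dox replicate 2 (−0.117) or BDNF replicate 3 (−0.00162) and with equal peak numbers per library (−0.296). Of the 75 CSMD3 peaks, 29.3% came from BDNF+Dox, 18.7% from BDNF and 52% from Naive libraries, while those groups supplied 35.7%, 25.9% and 38.4% of all library peaks.

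**Figure D1:**
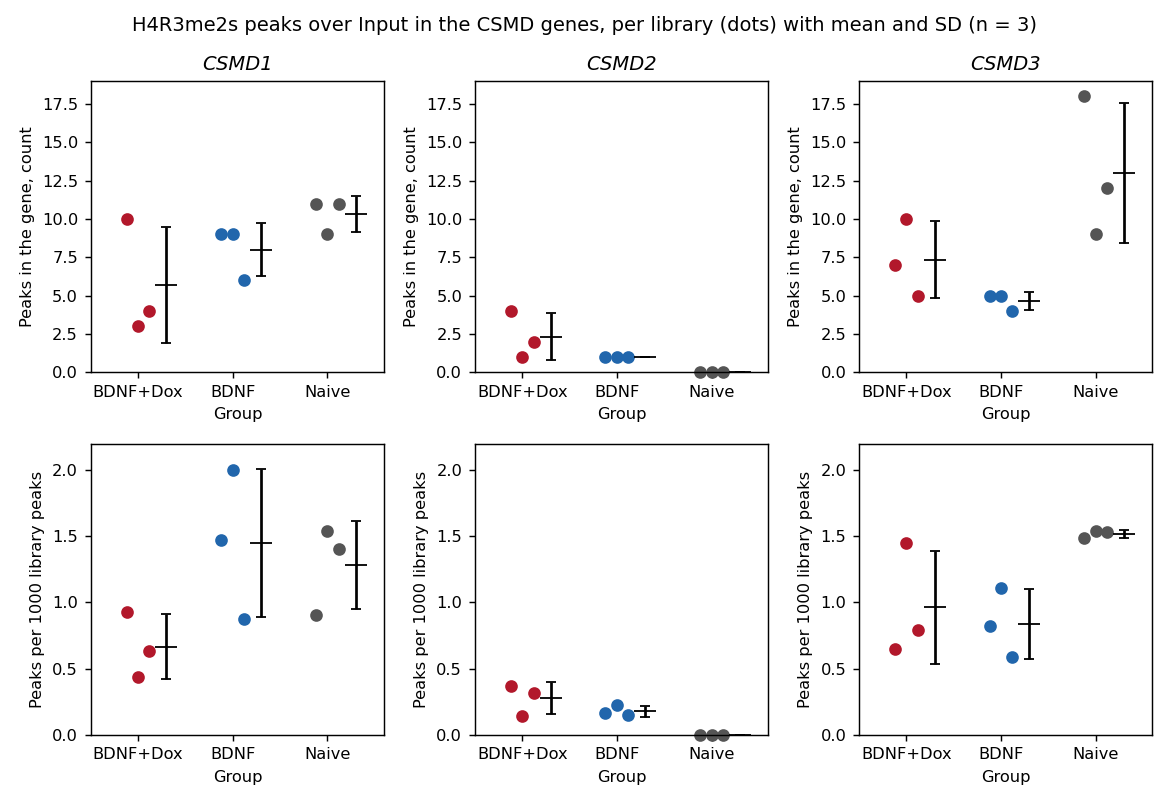
Peaks called against Input in each CSMD gene, as counts (top) and per 1000 peaks of the library (bottom), for BDNF+Dox, BDNF and Naive. Each dot is 1 library and the black marks are the mean and SD (n = 3). In CSMD3 the Naive libraries sit together between 1.48 and 1.54 per 1000, above all others, and in CSMD2 they are all at 0.

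CSMD2 had few peaks in differentiated cells and none in Naive cells. Its libraries held 4, 1 and 2 peaks in BDNF+Dox, 1, 1 and 1 in BDNF, and 0, 0 and 0 in Naive. Scaled means were 0.277 ± 0.118 peaks per 1000 for the BDNF+Dox libraries, 0.177 ± 0.0397 for the BDNF libraries and 0 for the Naive libraries (SD, n = 3 each). The 0 of 25822 Naive peaks allow up to 0.116 peaks per 1000, counting error only. No such range was computed for the 3 of 17460 BDNF peaks, so this limit does not separate the groups. BDNF minus Naive was 0.177 per 1000, and 3 of 3 BDNF libraries lay above the Naive libraries. Every BDNF library lay above every Naive library in 3.65% of the 603 genes, and every BDNF+Dox library above every Naive library in 6.63%. With 3 peaks in BDNF in all, a single peak per library makes this pattern, and with equal peak numbers per library BDNF minus Naive was 0.148 and the groups overlapped.

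CSMD1, the longest of the family, had its lowest scaled mean in BDNF+Dox, though the groups overlapped. BDNF+Dox libraries held 10, 3 and 4 peaks, BDNF libraries 9, 9 and 6, and Naive libraries 11, 9 and 11. Per 1000 library peaks, BDNF+Dox had 0.925, 0.434 and 0.635, BDNF had 1.47, 2.00 and 0.876, and Naive had 0.906, 1.54 and 1.40. BDNF+Dox replicate 1, the highest of its group, lay just above BDNF replicate 3 and Naive replicate 1, the lowest of theirs.

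The CSMD1 means were 0.665 ± 0.247 per 1000 for BDNF+Dox, 1.45 ± 0.561 for BDNF and 1.28 ± 0.334 for Naive (SD, n = 3 each). BDNF+Dox minus BDNF was −0.785 and BDNF+Dox minus Naive −0.618, both larger in size than the SD of each group. Without BDNF replicate 2, the highest library, BDNF+Dox minus BDNF was −0.510. All BDNF+Dox libraries lay below all BDNF libraries in 3.32% of the 603 genes, but not in CSMD1. Over the 603 genes the median difference was 0.0163 for BDNF+Dox minus BDNF and 0.0196 for BDNF+Dox minus Naive. Most of these genes have fewer peaks than CSMD1, and a median of signed differences shows no spread. How common differences of this size are among genes with similar counts was not counted. BDNF and Naive did not separate in CSMD1 (difference 0.166), and the sign turned without BDNF replicate 2 (−0.108) or Naive replicate 1 (−0.0222). BDNF+Dox supplied 23.6% of the 72 CSMD1 peaks, BDNF 33.3% and Naive 43.1%.

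Summed over the 3 genes, BDNF+Dox libraries had 15.3 ± 5.13 peaks, BDNF libraries 13.7 ± 2.31 and Naive libraries 23.3 ± 5.51 (SD, n = 3 each). Scaled sums were 1.90 ± 0.145, 2.46 ± 0.862 and 2.80 ± 0.364 per 1000 peaks for BDNF+Dox, BDNF and Naive. In these sums the place of Naive, lowest in CSMD2 and highest in CSMD3, is not visible.

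Genes with the most similar course over the 9 libraries were found among protein-coding genes holding at least 20 library peaks. For CSMD1 these were PTPRN2 (Pearson r = 0.857), a receptor-type phosphatase of secretory vesicles, DLGAP1 (r = 0.838), a postsynaptic scaffold protein, and LRRC4C (r = 0.747), a synaptic adhesion molecule. For CSMD2 they were LINGO2 (r = 0.845), ERC2 (r = 0.784), a presynaptic active zone protein, and MAST4 (r = 0.776), a kinase gene. For CSMD3 they were LTBP1 (r = 0.694), a latent TGF-β binding protein, NLGN1 (r = 0.694), a postsynaptic adhesion molecule, and DNAH14 (r = 0.677), a dynein heavy chain gene. Each is 1 of the top 3 among 182 candidates (183 for CSMD2). The members did not share a course: r was −0.229 for CSMD1 with CSMD2, 0.161 for CSMD1 with CSMD3 and −0.779 for CSMD2 with CSMD3. The course of CSMD2 rests on 10 peaks, fewer than the 20 asked of candidates. All libraries share 1 Input and a common denominator, and the values are descriptions.

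Per length, over all libraries together, CSMD3 was the densest of the genes of 1 Mb or more. It carried 61.6 library peaks per Mb over the 9 libraries together, against 34.9 in CSMD1 and 15.2 in CSMD2. Among the 69 protein-coding genes of 1 Mb or more, whose median was 29.7 and whose lowest was 11.3 per Mb, CSMD3 ranked 1 and CSMD1 ranked 18. The next after CSMD3 were SGCZ, a sarcoglycan gene that also lies on chromosome 8, with 55.3 per Mb, and NKAIN2 with 46.8. Among the 314 genes of 500 kb or more CSMD3 ranked 4, CSMD1 ranked 85 and CSMD2 261.

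Those ranks differed between groups. Among the 69 genes CSMD3 ranked 3 for BDNF+Dox libraries, 9 for BDNF libraries and 1 for Naive libraries, and CSMD1 ranked 53, 8 and 17 for the same groups. With every library weighted equally CSMD3 ranked 3, 7 and 1 and CSMD1 55, 6 and 14 across the same groups.

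The order of the members varied between libraries. CSMD3 was denser than CSMD1 in 7 of 9 libraries and denser than CSMD2 in 8 of 9, and CSMD1 was denser than CSMD2 in 6 of 9. By group, CSMD3 had 6.02 ± 2.07 peaks per Mb in a BDNF+Dox library, 3.83 ± 0.474 in a BDNF library and 10.7 ± 3.76 in a Naive library (SD, n = 3 each). CSMD1 had 2.75 ± 1.83, 3.88 ± 0.839 and 5.01 ± 0.56 across the same groups, so in BDNF the 2 genes differed by less than the spread between libraries.

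High density was not confined to CSMD3 itself. The 1 Mb on each side of it held 48 peaks per Mb, against 27 around CSMD1 and 11.5 around CSMD2, so each member was denser than its own surroundings by a similar margin. Peak lists carry no copy number or mappability, and the part of either in these densities was not tested.

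**Figure D2:**
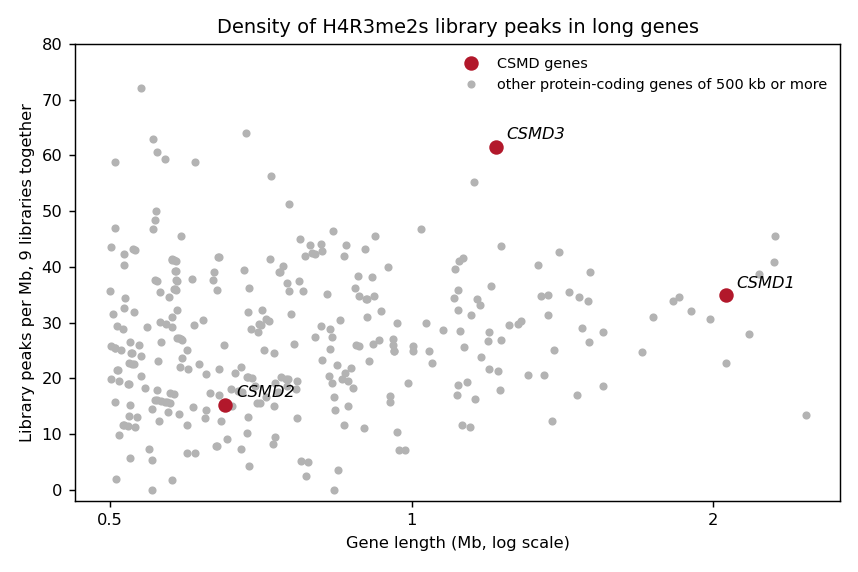
Library peaks per Mb, 9 libraries together, against gene length on a log scale for the 314 protein-coding genes of 500 kb or more. CSMD genes are red and the others grey. CSMD3 lies at 61.6 per Mb, above every other gene of 1 Mb or more, with CSMD1 at 34.9 and CSMD2 at 15.2.

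Peaks were spread through the gene bodies and did not gather at gene ends. No library peak of the family lay within 2 kb of either end: the nearest was 7.9 kb from an end in CSMD3, 7.98 kb in CSMD2 and 10.3 kb in CSMD1. The 2 kb flanks held 0 peaks, and widening them to 10 kb added 1 peak, 7.44 kb outside CSMD3 in BDNF replicate 2. These stretches are short, and the number that even spacing would put there was not computed. Avoidance of the ends is therefore not shown. From the low-coordinate to the high-coordinate end, 5 equal parts of CSMD3 held 14, 12, 14, 13 and 22 peaks, those of CSMD1 12, 11, 13, 22 and 14, and those of CSMD2 2, 2, 2, 1 and 3. In the last part of CSMD3, BDNF+Dox had 9 of its 22 peaks, BDNF 2 of 14 and Naive 11 of 39, and in the part of CSMD1 next to last, BDNF+Dox had 5 of 17, BDNF 5 of 24 and Naive 12 of 31.

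The starts of CSMD2 were free of peaks in all 13 lists. The share of all promoter windows without a peak was not counted, so this absence is not shown to be particular to CSMD2. RefSeq places CSMD2 on the minus strand with 2 annotated starts, and the 250 bases before each are shown because a peak at the promoter was looked for there. Capitals mark CG dinucleotides, which read the same on both strands and of which the outer window has 9 and the inner 23, against a median of 11 in 35116 RefSeq promoter windows (GRCh38.p14). As many or more occur in 54.1% of all windows for the outer and in 25.8% for the inner. The closest peak of any list was 7.89 kb from the outer window and 7.28 kb from the inner, in BDNF+Dox replicate 1.
CSMD2 outer start, chr1:34165843-34166092, minus strand: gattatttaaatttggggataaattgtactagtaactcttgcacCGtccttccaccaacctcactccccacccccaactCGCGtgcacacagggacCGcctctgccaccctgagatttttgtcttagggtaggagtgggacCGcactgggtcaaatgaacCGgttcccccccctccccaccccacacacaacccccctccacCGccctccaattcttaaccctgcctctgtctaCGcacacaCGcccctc
CSMD2 inner start, chr1:34165231-34165480, minus strand: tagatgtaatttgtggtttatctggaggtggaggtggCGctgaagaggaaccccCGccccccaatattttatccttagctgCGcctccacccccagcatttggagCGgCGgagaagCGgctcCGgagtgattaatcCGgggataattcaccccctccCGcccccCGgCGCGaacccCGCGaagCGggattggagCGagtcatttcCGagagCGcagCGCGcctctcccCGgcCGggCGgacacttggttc
Start sites of CSMD1 and CSMD3 were not used here.

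Peaks of different libraries almost never fell on the same place. The 157 peaks formed 72 regions in CSMD1, 10 in CSMD2 and 74 in CSMD3, and 1 of these regions, in CSMD3 from 112425119 to 112425474, held peaks of 2 libraries, BDNF replicate 2 and Naive replicate 1. Over the whole genome 2.37% of 65632 regions held peaks of 2 or more libraries, against 1 of 74, or 1.35%, in CSMD3. Regions supported by all 3 libraries of 1 group numbered 7 in the genome and 0 in the family.

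Most single peaks of the CSMD genes were weak, as were most peaks elsewhere. Median fold over Input, as the authors computed it, was 3.66 in CSMD1, 3.71 in CSMD2 and 3.52 in CSMD3, against 3.47 over all library peaks. None of the 157 reached q of 0.05, and 81.9%, 80% and 84% of the peaks in CSMD1, CSMD2 and CSMD3 had q = 1, against 83.5% of all peaks. The strongest by p lay in CSMD3 at 112564341 to 112564540 in Naive replicate 2, with a fold of 4.82, a −log10 p of 6.38 and q = 0.231. In CSMD1 the strongest was at 3167788 to 3167980 in Naive replicate 1 (fold 4.82, q = 0.2), and in CSMD2 at 34099149 to 34099322 in BDNF+Dox replicate 3 (fold 4.76, q = 0.486).

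**Figure D3:**
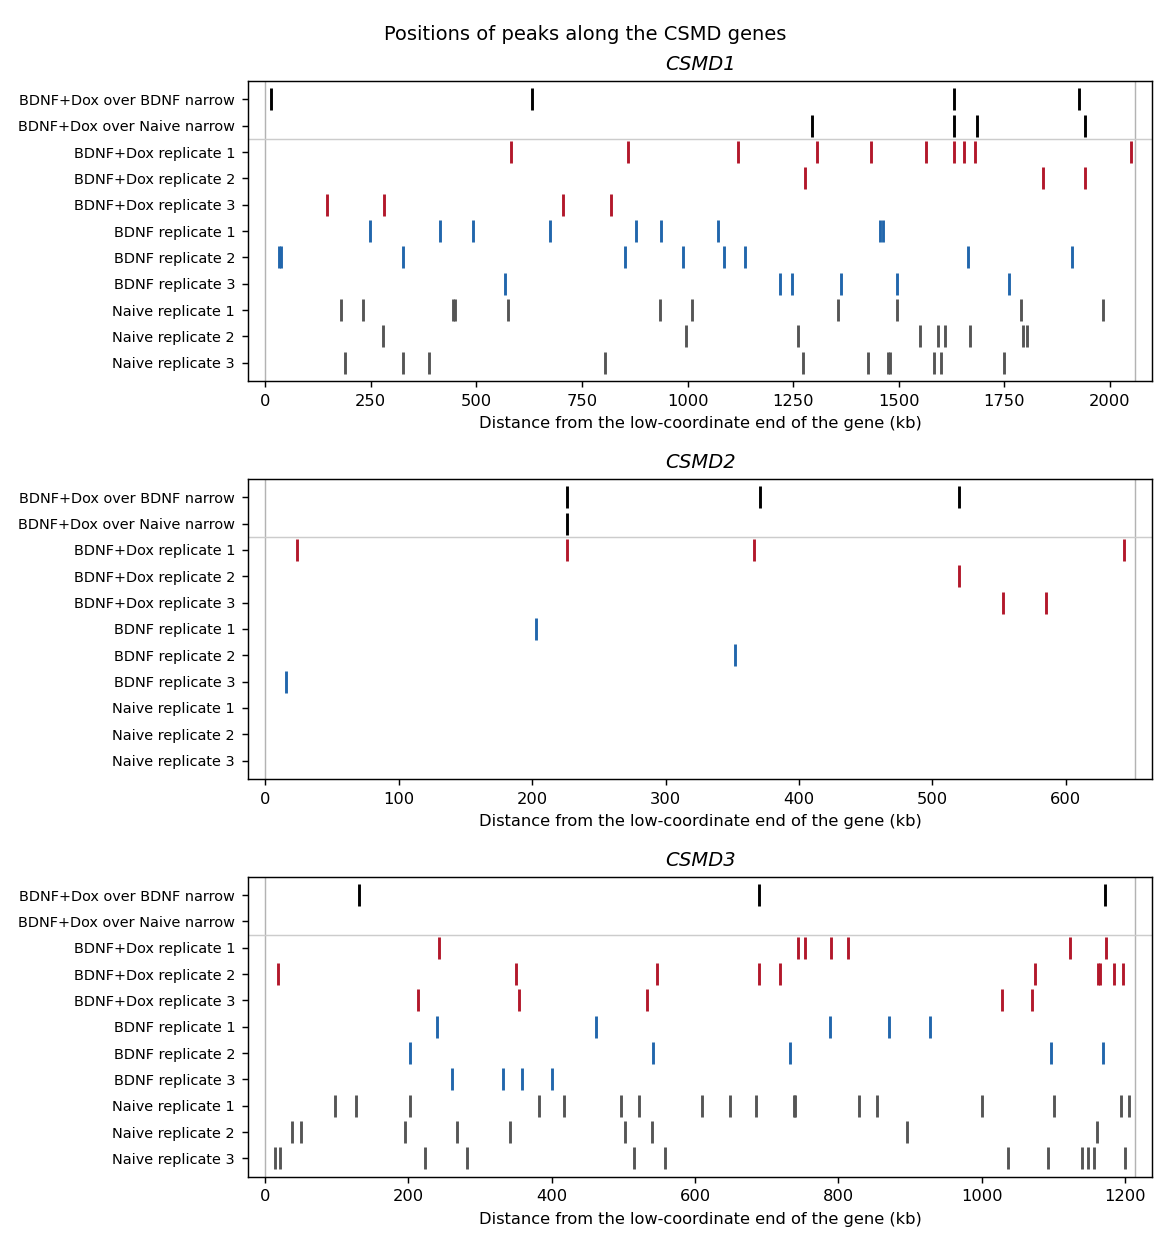
Positions of peaks along CSMD1, CSMD2 and CSMD3, as distance in kb from the low-coordinate end of each gene, with grey lines at both ends. The top 2 rows are the authors' pooled narrow lists of BDNF+Dox over BDNF and over Naive, and the other rows are the 9 libraries called against Input. Ticks lie throughout the genes and seldom line up between rows, CSMD2 has none in Naive rows, and CSMD3 has none in the pooled list over Naive.

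For the pooled lists, reads of a group's libraries were merged by the authors, who then called BDNF+Dox directly over BDNF and over Naive. Both lists use the same BDNF+Dox reads, so they are not independent of each other or of the libraries. In the authors' deposited table the narrow list over BDNF had 4 peaks in CSMD1, 3 in CSMD2 and 3 in CSMD3, and that over Naive 4 in CSMD1, 1 in CSMD2 and 0 in CSMD3. At least 1 narrow peak was present in 85.1% of the 603 genes over BDNF and in 74.3% over Naive, so a pooled peak is usual for genes of this kind.

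Set against their share of library peaks, CSMD1 and CSMD3 held fewer pooled peaks than expected. The share of a gene among the 67301 library peaks, multiplied by the length of the pooled list (9850 peaks over BDNF, 7882 over Naive), gave the expected count. Over BDNF, CSMD3 had 3 peaks where 11.0 were expected, a ratio of 0.273 with a 95% exact Clopper-Pearson interval from 0.0564 to 0.798. CSMD1 had 4 where 10.5 were expected (0.38, from 0.103 to 0.972), and CSMD2 3 where 1.46 were expected (2.05, from 0.423 to 5.99). The intervals cover counting error in the pooled list only and are no test, since these counts chose the genes.

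Over Naive the order was the same. CSMD3 had 0 peaks where 8.78 were expected, a ratio of 0 with an interval up to 0.42. CSMD1 had 4 where 8.43 were expected (0.474, from 0.129 to 1.21), and CSMD2 1 where 1.17 were expected (0.854, from 0.0216 to 4.76). Fewer pooled peaks than expected were found in 59.9% of the 603 genes over BDNF and in 64% over Naive, and chromosome 8 as a whole had 0.867 times the expected number over BDNF and 0.853 times over Naive. Chromosome 1 had 1.27 and 1.32 times the expected number.

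Library peaks of the compared groups enter that expectation, and for CSMD3 the Naive libraries supplied 52% of them. With the BDNF+Dox libraries alone as the base, CSMD3 still had 3 peaks where 9.02 were expected over BDNF (0.333) and 0 where 7.22 were expected over Naive. CSMD1 then had ratios of 0.574 over BDNF and 0.717 over Naive, and CSMD2 of 1.05 and 0.435. Ratios of other genes on the BDNF+Dox base are not given, so these values have no background. The ranks and ratios that follow again use all 9 libraries as the base. Among the 69 genes of 1 Mb or more, CSMD3 ranked 3 from the lowest ratio over BDNF. With ADAMTSL1, which is named after its value was seen, it was 1 of 2 genes without a peak over Naive. CSMD1 ranked 8 from the lowest over BDNF and 13 over Naive. Low ratios were not confined to CSMD genes: SGCZ and NKAIN2, the next densest of the 69, had 0.534 and 0.285 over BDNF. Over Naive these 2 genes had 0.667 and 0.178. Library peaks are the base of the ratio, so a densely peaked gene has a high expected count. Together the 69 genes held 402 pooled peaks where 423 were expected over BDNF and 304 where 339 were expected over Naive.

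**Figure D4:**
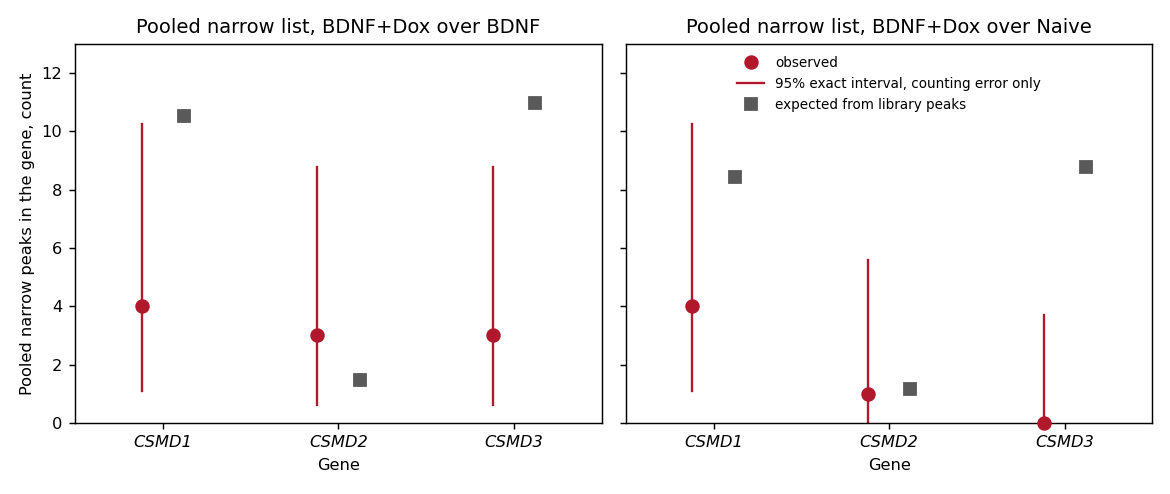
Narrow peaks in each CSMD gene in the pooled lists of BDNF+Dox over BDNF (left) and over Naive (right): observed counts (red dots) with 95% exact intervals for counting error, and counts expected from the peaks of all 9 libraries (grey squares). CSMD3 has 3 against 11.0 expected over BDNF and 0 against 8.78 over Naive. CSMD2 has 3 against 1.46 over BDNF and 1 against 1.17 over Naive.

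One pooled peak of the family passed q of 0.05. It lay in CSMD1 at 3565985 to 3566192, 631 kb from the low-coordinate end, with a fold of 3.86 and q = 0.0212 over BDNF in the authors' deposited table, where 0.822% of narrow peaks over BDNF and 1.01% over Naive have q of 0.05 or less. This peak overlapped a peak of 0 of the 9 libraries and was absent from the narrow list over Naive. In the authors' deposited table the broad call at the same place had q = 0.6. The next CSMD1 peaks over BDNF, at 4862725 to 4862929 (q = 0.889) and 2948336 to 2948578 (q = 1, also inside the noncoding gene LOC105377785) in the authors' deposited table, overlapped no library peak either.

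A few pooled peaks had a library peak beneath them. In CSMD1, the stretch from 4567125 to 4567311 over BDNF (fold 2.09) and from 4567092 to 4567311 over Naive (fold 2.83) in the authors' deposited table met a peak of BDNF+Dox replicate 1, and the one at 4876530 to 4876692 over Naive a peak of BDNF+Dox replicate 2. In CSMD2, the stretch from 33739874 to 33740046 over BDNF (fold 3.00) and from 33739884 over Naive (fold 3.01) in the authors' deposited table met a peak of BDNF+Dox replicate 1, and 34033981 to 34034182 over BDNF a peak of BDNF+Dox replicate 2. In CSMD3 this held for 112912618 to 112912815 over BDNF (fold 2.42 in the authors' deposited table) and BDNF+Dox replicate 2.

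Counted over the family, 4 of 10 peaks over BDNF and 3 of 5 over Naive overlapped a BDNF+Dox library peak, where 17.9% and 18.3% of all pooled peaks did. None overlapped 2 such libraries, and 0 overlapped a BDNF or Naive library peak. How many of all pooled peaks did either was not counted, so these absences are not shown to be particular to the CSMD genes. BDNF+Dox reads are the same in both lists and in the libraries, so an overlap is no second measurement.

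Among the remaining pooled peaks, one in CSMD2 at 33884845 to 33885097 (fold 2.70 in the authors' deposited table) lay inside CSMD2-AS1, an antisense noncoding RNA gene, where BDNF+Dox replicate 1 had a separate peak at 33880527 to 33880727. Peaks carry no strand, so the 2 overlapping genes cannot be told apart. In CSMD3, peaks at 113394641 to 113394803 (fold 3.07, q = 0.827) and 112354296 to 112354665 (fold 2.94, q = 1) over BDNF in the authors' deposited table overlapped no library peak. Nested noncoding genes and pseudogenes took 6 of the 72 library peaks of CSMD1, 1 of 10 in CSMD2 and 1 of 75 in CSMD3.

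In the authors' deposited table CSMD1 had 13 broad peaks over BDNF and 16 over Naive, CSMD2 5 and 6, and CSMD3 9 and 3. By the library share these were 0.482 and 0.742 times the expected number in CSMD1, 1.33 and 2.00 times in CSMD2, and 0.32 and 0.134 times in CSMD3. The longest, 808 bp, lay in CSMD1 at 3887882 to 3888689 in the authors' deposited table. No broad peak of the family had q of 0.05 or less. In the whole lists, only 5 of 25226 broad peaks over BDNF and 3 of 20165 over Naive did, so their absence here is usual.

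Other genes with CUB or sushi domains held more pooled narrow peaks than their library share gave. CSMD2 also did over BDNF, while CSMD1 and CSMD3 held fewer in both lists. The difference from CSMD1 and CSMD3 was not tested, and no ratio over all protein-coding genes is given to set beside it. All 24 genes of this list were matched, and 16 held 66 library peaks, where 7452 of all 19970 protein-coding genes held at least 1. They had 16 pooled narrow peaks in 8 genes over BDNF where 9.66 were expected, and 12 in 8 genes over Naive where 7.73 were expected. Of 38 complement genes and their regulators and receptors, 15 held 41 library peaks, with 8 pooled peaks in 6 genes over BDNF (expected 6.00) and 5 in 5 genes over Naive (expected 4.80). At least 1 pooled narrow peak was present in 14.7% of all protein-coding genes over BDNF and in 13.1% over Naive, whatever their length. No gene of either list had a pooled peak at q of 0.05 or less, against 0.12% of all protein-coding genes over BDNF and 0.19% over Naive, or a region with peaks in all 3 libraries of a group. Library peaks per Mb were 22.5 in the CUB and sushi list, 24.7 in the complement list and 20.6 over all protein-coding genes.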

How the data were processed

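H4R3me2s ChIP-seq of 9 SH-SY5Y libraries was analysed from peak lists. The submitters' processing notes name GRCh38, cutadapt 1.1, Trimmomatic 0.32, Bowtie and MACS2 2.2.7.1. MACS2 compared every library with the Input, per the file headers, and merged BDNF+Dox against merged BDNF and merged Naive, at p of 0.01 (broad lists with a broad cutoff of 0.01), keeping 1 read per position, scaling the larger dataset down, with local windows of 1000 and 10000 bp. The deposited lists give 1-based positions, pileup signal, −log10 p and q, and fold, a ratio to the local background, as computed by the authors. The headers say q would not be calculated, while the q column holds values, used as given. Merged libraries held 54723304 (BDNF+Dox), 52693520 (BDNF) and 53481523 (Naive) reads after filtering. Peaks of BDNF or Naive over BDNF+Dox were not analysed here.

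Peaks on chromosomes 1 to 22 and X were counted per gene (RefSeq spans, 2 kb flanks, overlap of 1 bp) with Python 3.11.15, numpy 2.4.6, pandas 2.3.3 and scipy 1.17.1, and plotted with matplotlib 3.10.9. BDNF and Naive were compared by an exact two-sided permutation test over 20 splits, tested on simulated data and adjusted by Benjamini-Hochberg over the 7452 genes with a peak. It called 0 genes at 0.05, and unadjusted p cannot go below 0.1 with 3 libraries against 3. Its p-values are not given for the CSMD genes, whose library counts entered their choice. Regions merged peaks of different libraries overlapping by 1 bp. Members and lists were chosen with earlier results of these data known. Named genes were the members, list members with a pooled q of 0.05 or less or a region in all 3 libraries of a group (none were found), the 3 most alike in course and the 3 densest. Promoter windows are from RefSeq. Alternatives were a −log10 p of 3 or more, flanks of 0 and 10 kb, equal peak numbers, other bases for the expected counts, an overlap of 50% of the shorter peak, broad lists, each library left out, the replicate block, and, added after seeing the data, the own chromosome as denominator.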

Additional observations from a re-analysis of the deposited data

How the results depend on the processing

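Across 18 results and 165 alternatives, 155 values kept their direction, or stayed within the spread or interval of the reported value. Some of the 155 could not differ, since the 2 kb flanks held 0 peaks and the replicate block keeps the difference of means. The difference of BDNF minus Naive in CSMD1 ranged from −0.108 to 0.453 peaks per 1000 when 1 library was left out, changing sign without BDNF replicate 2 or Naive replicate 1 (−0.0222). With equal peak numbers per library, BDNF+Dox minus BDNF was 0.37 in CSMD2 and −0.296 in CSMD3, and BDNF+Dox minus Naive 0.518 in CSMD2 and −0.888 in CSMD3. At a −log10 p of 3 or more, BDNF+Dox minus Naive in CSMD3 was −0.86 and BDNF+Dox minus BDNF −0.107. The cause was not tested. The single region of 2 libraries in CSMD3 was lost (0 regions) when 50% of the shorter peak had to overlap, and leaving out libraries gave 0 to 1. BDNF minus Naive in CSMD3 stayed between −0.816 and −0.553 with 1 library left out.

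Replicate numbers gave no sign of pairing: over 183 genes, deviations of same-numbered libraries of different groups correlated between −0.153 and 0.0223. Differently numbered libraries gave −0.11 to 0.153. Peaks seldom recurred between libraries, so a pairing could have been missed. With the replicate block, BDNF minus Naive keeps its reported values by construction, 0.166 in CSMD1, 0.177 in CSMD2 and −0.68 in CSMD3. The p of this blocked permutation cannot go below 0.25, so it could change no call. Reads were not counted in regions without a peak, so a weak peak and no peak cannot be told apart by depth.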
